A study of Mus musculus with 5 samples.

Results

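The genes examined here encode the subunits of the transcription factor NF-kappaB and the proteins that restrain or modulate it: Nfkb1, Nfkb2, Rel, Rela, Relb, Nfkbia, Nfkbie, Nfkbiz, Tnfaip3 and Bcl3. They were read through every probe set (a group of short array probes for a transcript) that the platform annotation gives to a single one of these genes. This found 18 probe sets for 9 of the 10 genes, out of 18193 genes with a probe set of their own. Nfkb1 was not analysed here. RNA came from long-term haematopoietic stem cells (LT-HSCs) of C57BL/6 mice aged 4 weeks and was hybridised to 5 Affymetrix arrays, to ask what loss of Lrf, the repressor encoded by Zbtb7a, does to their transcriptome. The 2 control arrays came from Zbtb7a Flox/+ Mx1-Cre+ mice, heterozygous for Lrf, and the 3 knockout arrays from Zbtb7a Flox/Flox Mx1-Cre+ mice. All mice, controls included, carried Cre recombinase under the interferon-inducible Mx1 promoter, received 2 injections of 250 µg pIpC, a double-stranded RNA analogue, and were sampled 9 days after the first. Cells were sorted as LSK IL7Ra-Flt3-CD150+CD48-. The Mx1 promoter is active in many cell types, so Cre made from it is not confined to stem cells. Knockout replicate 3 is described with 2 animal numbers and the other samples with 1 each, and p-values measure the spread between these samples.

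NF-kappaB is a dimer of Rel-family proteins. In resting cells the IκB proteins hold it in the cytoplasm, and signals from Toll-like receptors, double-stranded RNA sensors and receptors of the tumour necrosis factor family lead to IκB degradation and entry of the dimer into the nucleus. Several inhibitors, among them IκBα (Nfkbia) and A20 (Tnfaip3), are themselves NF-kappaB target genes and close a negative feedback loop, so their transcripts are often used to follow pathway activity. In stem cells the pathway links inflammatory signals to survival and lineage output.

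The DNA element bound by NF-kappaB is short. The sequences below show matches to a pattern for it at the feedback gene Nfkbia and at the subunit gene Nfkb2. RefSeq promoter windows (GRCm38.p6), each with 250 bases before and 50 after a start site, were found for 7 of the 10 genes, in 10 windows. They were searched on both strands for a kappaB motif, GGGA then any 2 bases then TTCC, and for its form with CT in the middle. The motif was in 1.47% of all 32851 windows and in 3 of the 10, those of Nfkbia and of 2 start sites of Nfkb2. The form with CT was in 0.155% of all windows and in 2 of the 10, which overlap at Nfkb2 and hold the same copy. A match describes the letters and no binding was measured. Other forms of the element were not searched for, so a window without a match may still hold one. The 250 bases before the Nfkbia start site, chr12:55492648-55492897 on the minus strand, carry the match 29 bases before the start. The 2 Nfkb2 matches, at chr19:46305459-46305468 and chr19:46305705-46305714 on the plus strand, are shown with 10 bases on each side. Capitals mark the match.
Nfkbia: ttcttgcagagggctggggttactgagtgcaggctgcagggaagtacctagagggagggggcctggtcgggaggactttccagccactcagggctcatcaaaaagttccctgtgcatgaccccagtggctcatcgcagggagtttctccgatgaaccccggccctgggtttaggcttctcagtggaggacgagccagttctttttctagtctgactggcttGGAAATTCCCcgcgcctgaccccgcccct
Nfkb2, first match: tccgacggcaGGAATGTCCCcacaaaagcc
Nfkb2, second match: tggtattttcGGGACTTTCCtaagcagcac

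All values are log2 intensities after RMA, a normalisation that gives every array the same distribution. Knockout replicate 2 stood apart before any gene of the pathway was considered. Its correlation with the other arrays over 45037 probe sets was 0.945 to 0.970, against 0.977 to 0.990 between the others. The 3'-minus-5' difference of the Actb control probe sets, a measure of RNA length, was 3.85 there and 4.90 to 5.21 elsewhere. That of the Gapdh control probe sets differed less, at 4.67 there and 5.06 to 5.17 elsewhere. All 10 LT-HSC markers measured, among them Kit, Slamf1 (CD150) and Procr, were lowest on that array, with a list mean of 7.40 against 9.24 to 10.18 on the others. Markers that the sort selects against ran the other way for Cd48, at 9.97 against 7.87 to 8.59, and Il7r, at 10.50 against 6.21 to 9.35, while Flt3 read 8.56 against 8.25 to 9.50. The 3 Zbtb7a probe sets overlapped between the groups (differences of -0.36 to 0.41), and the position of their probes relative to the deleted part was not analysed here, so they check nothing about the deletion. Differences between the groups are therefore given with and without knockout replicate 2.

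No NF-kappaB gene differed between knockout and control by more than the spread between arrays allowed. Of 27022 probe sets tested (those above a mean log2 value of 5.77), limma called 0 at an adjusted p under 0.05 (0%), and 306 (1.13%) had an unadjusted p under 0.05. Of the 18 member probe sets, 17 passed the filter, 0 were called and 0 had an unadjusted p under 0.05; the lowest was 0.11 (limma adjusted p = 1 for every member). Over the 9 genes, each by its probe set of highest mean, 7 differences were positive and the median was 0.22, against -0.03 over 12813 genes, of which 43.7% were positive. Without knockout replicate 2, 4 of the 9 were positive and the median was -0.08, against 0.0032 over all genes. The pattern that ran through the family lay in that single array: it was the highest of the 5 for 14 of the 17 tested member probe sets, against 26.6% of all probe sets tested. It exceeded the next highest array by at least 1 log2 unit for 5 of the 17, against 3.4% of all. Counted by gene it was highest for 6 of the 9, against 26% of 12813 genes. For 3 of the 9 (Nfkbiz, Tnfaip3 and Rel) it exceeded the next highest array by at least 1 log2 unit, against 3.6% of genes.

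**Figure D1:**
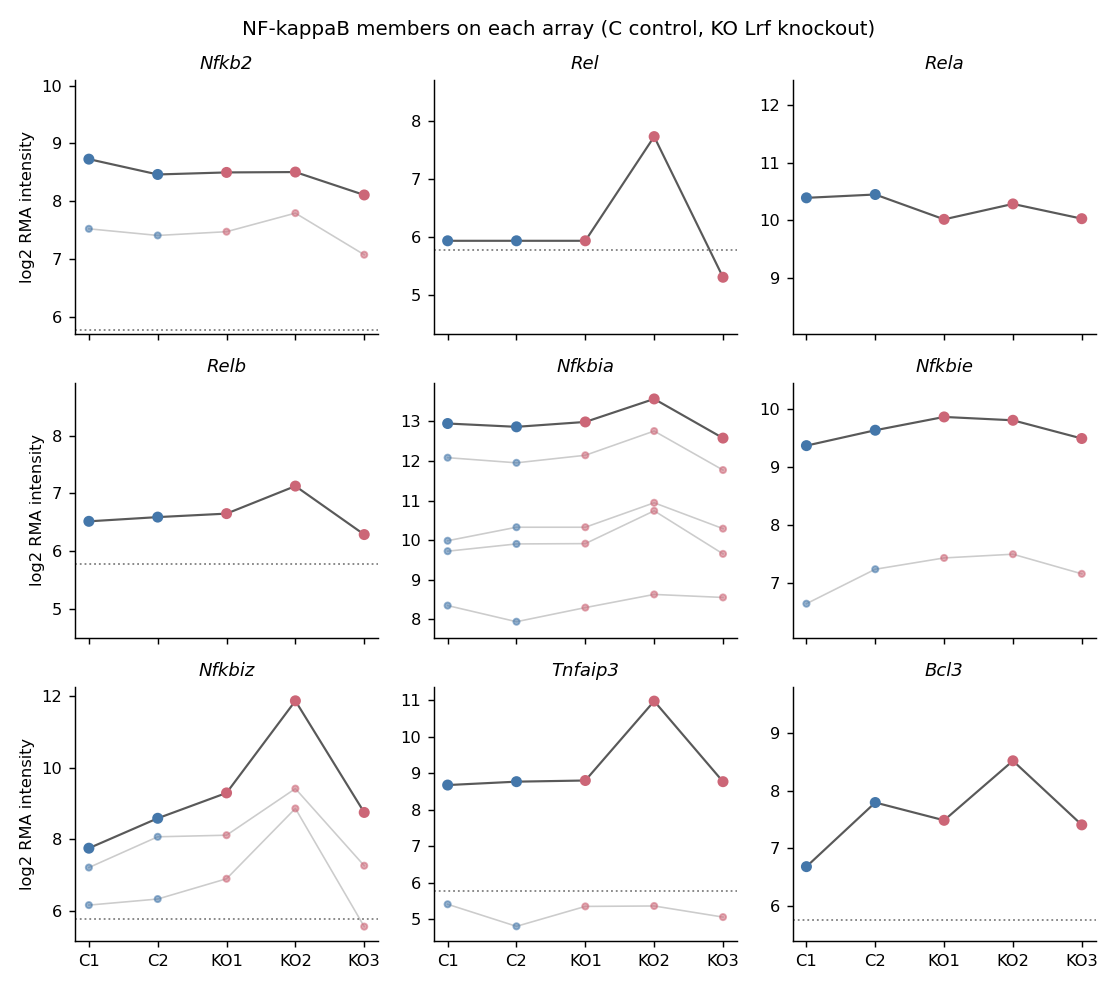
Log2 RMA intensity (y axis, same span or wider in each panel) on the 2 control (C, blue) and 3 knockout (KO, red) arrays for the 9 measured genes; a line joins the values of 1 probe set, dark for that of highest mean, and dotted lines mark the filter at 5.77. Nfkbiz, Tnfaip3 and Rel peak most in knockout replicate 2, where Bcl3, Relb and Nfkbia are also highest. Rela, Nfkb2, Nfkbie, Relb and Nfkbia stay within about 1 log2 unit over all 5 arrays.

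The subunits Rela, Rel and Relb carry a transactivation domain. Rela encodes p65, the common activating partner of the canonical dimer. It read 10.39 and 10.45 in the controls and 10.02, 10.28 and 10.03 in knockout replicates 1, 2 and 3. All 3 knockout values lay below both controls, as for 4.34% of all probe sets. The difference was -0.31 (SE 0.16, limma adjusted p = 1), a ratio of 0.81. Without knockout replicate 2 it was -0.40 (SE 0.12), with an unadjusted p = 0.0339 and a limma adjusted p = 0.953, and groups without overlap, as for 12.4% of all probe sets under that comparison. The lower level of Rela in knockouts thus did not rest on that array, and it did not pass the test.

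Rel encodes c-Rel, the subunit most linked to lymphocyte activation. It read 5.93 in both controls and in knockout replicate 1, 7.74 in replicate 2 and 5.30 in replicate 3. The levels outside replicate 2 lay close to the filter at 5.77, where RMA compresses differences. Equal values on 3 or more arrays occurred for 7957 of 45037 probe sets, also at brighter levels (Ier3, 8.78). The group difference of 0.39 (SE 0.76) became -0.32 (SE 0.26) without replicate 2. Relb, which pairs with p52 in the non-canonical branch, read 6.52 and 6.59 in controls and 6.65, 7.13 and 6.29 in knockouts. Its difference of 0.13 (SE 0.28) was -0.08 (SE 0.18) without replicate 2, so the sign of both differences depended on that array.

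Nfkb2 encodes p100, which is cut to p52 and in its uncut form also acts as an IκB. Its probe set of highest mean read 8.73 and 8.46 in controls and 8.50, 8.51 and 8.11 in knockouts, a difference of -0.23 (SE 0.20). The other probe set differed by -0.02 (SE 0.25). Groups overlapped for both, and knockout replicate 2 was 0.06 above the mean of the other arrays on the first and 0.42 above it on the second. Nfkb2 did not share the excess of Rel in that array.

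Among the inhibitors, Nfkbia encodes IκBα, the fast feedback inhibitor, and had 5 probe sets. On the one of highest mean it read 12.95 and 12.86 in controls and 12.99, 13.57 and 12.58 in knockouts, or 12.91 ± 0.06 (SD, n = 2) and 13.05 ± 0.50 (SD, n = 3). Knockout replicate 2 was highest on all 5 probe sets, by 0.35 to 0.94 over the mean of the other arrays, while those other arrays spanned 0.26 to 0.61. The 5 probe sets read the same transcript, so their agreement is not that of 5 genes. Group differences ran from 0.14 to 0.37, with SE of 0.20 to 0.37. Without replicate 2 they ran from -0.12 to 0.28, and 3 of the 5 were negative.

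Nfkbie, which encodes IκBε, an inhibitor that acts on Rela and c-Rel dimers, showed little of this. Its probe sets differed by 0.22 (SE 0.19) and 0.42 (SE 0.24) between the groups and by 0.18 and 0.36 without knockout replicate 2. On the first it read 9.37 and 9.64 in controls and 9.87, 9.81 and 9.50 in knockouts. The groups overlapped on both probe sets, and knockout replicates 1 and 2 lay close to each other on both.

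Nfkbiz had the largest difference of the 9 genes. It encodes IκBζ, an atypical nuclear IκB that is induced by Toll-like receptor and interleukin 1 signals and helps to switch on a second wave of target genes. On its probe set of highest mean it read 7.75 and 8.58 in controls and 9.29, 11.87 and 8.75 in knockouts. All 3 knockout arrays lay above both controls, as they did for 3.61% of all probe sets, but knockout replicate 3 exceeded control replicate 2 by less than the controls differed from each other. The means were 8.16 ± 0.59 (SD, n = 2) and 9.97 ± 1.67 (SD, n = 3), a difference of 1.80 (SE 1.03, unadjusted p = 0.145, limma adjusted p = 1), or 3.49-fold. Without knockout replicate 2 the difference was 0.85 (SE 0.38, unadjusted p = 0.0929, limma adjusted p = 0.953), and the groups still did not overlap, as for 14.3% of all probe sets with the knockout higher.

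The other Nfkbiz probe sets did not separate the groups. They read 7.20 and 8.06 in controls against 8.11, 9.41 and 7.26 in knockouts, and 6.15 and 6.32 against 6.89, 8.86 and 5.55. Their differences of 0.62 (SE 0.71) and 0.86 (SE 1.00) became 0.05 and -0.02 without knockout replicate 2. On all 3 probe sets that array was highest, by 3.28, 1.75 and 2.63 over the mean of the others. What the 3 probe sets shared was thus the excess in 1 array, not the difference between the groups.

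Tnfaip3 encodes A20, a ubiquitin-editing enzyme that shuts off signals upstream of the IκB kinases. It gave the sharpest contrast between arrays: 8.67 and 8.77 in controls, 8.80 and 8.77 in replicates 1 and 3 of the knockout, and 10.98 in its replicate 2. The 4 other arrays spanned 0.12, and replicate 2 lay 2.23 above their mean, 4.68-fold. The group difference of 0.79 (SE 0.77) was 0.06 (SE 0.12) without it. A dim second probe set, at 4.80 to 5.40 on all arrays, lay under the filter and showed no such excess.

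Bcl3 encodes an atypical IκB that acts in the nucleus with p50 or p52 homodimers. It read 6.68 and 7.79 in controls and 7.49, 8.52 and 7.41 in knockouts. The controls differed from each other by more than the group difference of 0.56 (SE 0.51), which was 0.21 (SE 0.42) without knockout replicate 2. That array was again highest, by 0.72 over control replicate 2.

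**Figure D2:**
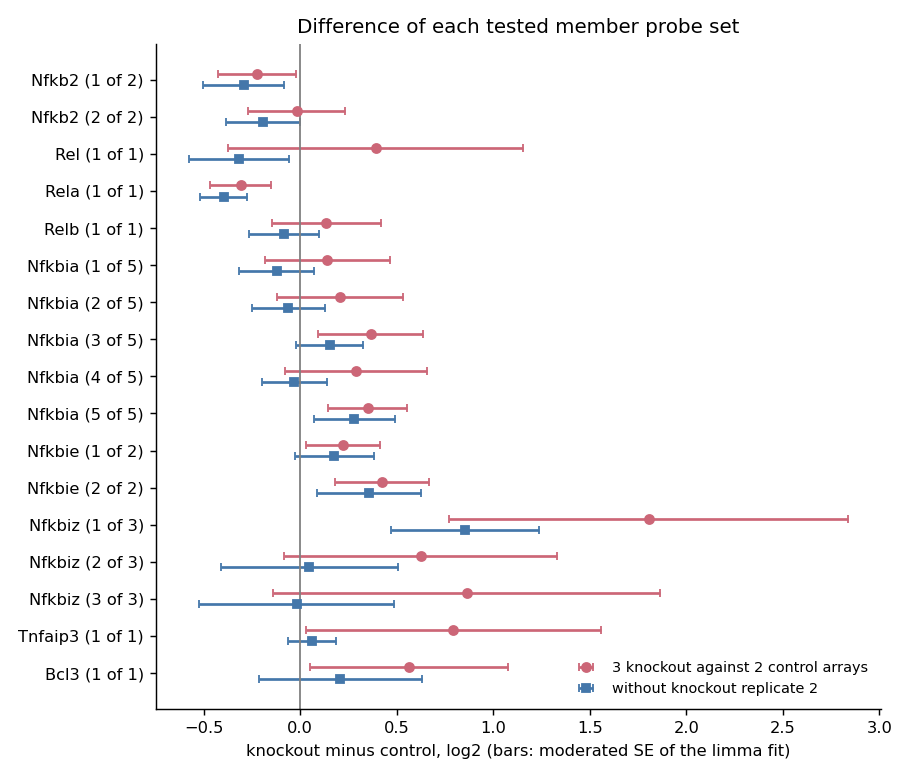
Knockout minus control, in log2 units, for the 17 tested member probe sets, numbered within each gene from the highest mean down; red points use all 5 arrays, blue squares leave out knockout replicate 2, and bars are the moderated SE of each limma fit. Nfkbiz moves from 1.80 to 0.85, Tnfaip3 from 0.79 to 0.06 and Rel from 0.39 to -0.32, while Rela stays negative.

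Ordered by the excess of knockout replicate 2 over the mean of the other 4 arrays, the genes were Nfkbiz (3.28), Tnfaip3 (2.23), Rel (1.96), Bcl3 (1.17), Nfkbia (0.72), Relb (0.62), Nfkbie (0.22), Rela (0.06) and Nfkb2 (0.06). With 1 array on one side these are descriptions with no test. Over 12813 genes the median excess was -0.07 and the 95th percentile 1.34, so Nfkbiz, Tnfaip3 and Rel lay beyond that percentile and the other 6 did not. The members beyond it comprise 1 subunit, 1 nuclear IκB and 1 upstream inhibitor.

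For the 4 members that spanned at least 1 log2 unit over the arrays, the genes of most similar profile were found by the root mean square distance of centred profiles over 5 arrays. Nearest to Tnfaip3 were Itgax, which encodes the integrin CD11c (distance 0.09), Padi2 (0.09) and Tgfbi (0.09), all highest in knockout replicate 2. Nearest to Rel were Lsp1 (0.08), the orphan nuclear receptor gene Nr4a1 (0.11) and the Toll-like receptor gene Tlr1 (0.13). Tlr1 read 7.43 in knockout replicate 2 and 5.23 to 5.70 elsewhere, below the filter, so it passed the filter only through that array. Nearest to Nfkbiz were Ms4a6c (0.36), the chemokine gene Ccl5 (0.38) and Ifi27l2a (0.40), at larger distances. Nearest to Bcl3 were Plekha1 (0.15), Parp8 (0.16) and the kinase gene Plk2 (0.17). Since 1 array sets most of these profiles, the distances describe a shared peak.

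The rest of the pathway was read from lists of genes by role, and limma called 0 genes in any of them. Of 10 genes of the IκB kinase complex and the kinases and TAK1-binding proteins around it, 8 were positive, with a median of 0.05, and 5 with a median of 0.04 without knockout replicate 2. Ikbkg, the regulatory subunit NEMO, differed by -0.27 (SE 0.18; -0.18 without that array). The catalytic subunit gene Ikbkb differed by 0.22 (SE 0.20; 0.25 without it). Map3k14 (NIK), the kinase of the non-canonical branch, differed by 0.0015 (SE 0.17; -0.10 without it). Their excess in knockout replicate 2 had a median of 0.01, with that array highest for 4 of the 10. Map3k8 (Tpl2), with the largest excess, read 8.18 there against 6.08 to 7.07 elsewhere.

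Of 16 adaptors and ubiquitin ligases, 9 were positive, with a median of 0.03, and 6 with a median of -0.07 without knockout replicate 2. Irak3, which encodes the inhibitory kinase IRAK-M, read 9.73 and 9.94 in controls and 8.78, 9.67 and 9.33 in knockouts, a difference of -0.57 (SE 0.30; -0.78 without that array) with groups that did not overlap, as for 4.5% of all genes with the knockout lower. Irak1 differed by -0.31 (SE 0.20) and Irak2 by 0.45 (SE 0.38), which were -0.19 and 0.14 without it. Myd88, the Toll-like receptor adaptor, differed by 0.30 (SE 0.29) and by 0.05 without it. Knockout replicate 2 was highest for 7 of the 16 and lowest for 4 (Birc2, Tradd, Irak1 and Rbck1), with a median excess of 0.12. The largest excesses were those of Bcl10 and Birc3. Birc3, a target gene as well as a ubiquitin ligase of the pathway, read 10.23 in knockout replicate 2 and 8.74 to 9.16 elsewhere, and Bcl10 read 11.72 there and 9.87 to 10.46 elsewhere.

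Of the 6 remaining IκB genes and A20 partners measured, 4 were positive, with a median of 0.09, and 3 with a median of -0.09 without knockout replicate 2. Nfkbib, which encodes IκBβ, read 7.70 and 7.81 in controls and 8.03, 7.87 and 7.96 in knockouts, a difference of 0.20 (SE 0.14; 0.24 without that array). Its groups did not overlap, as for 2.68% of all genes with the knockout higher. Knockout replicate 2 was highest for 2 of these 6, with a median excess of 0.01. Nfkbid, the gene of a further nuclear IκB, had the largest excess and read 10.12 there against 6.75 to 7.77 elsewhere.

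Upstream, 10 of 14 receptor and ligand genes above the filter were positive, with a median of 0.18, and -0.18 with 3 positive without knockout replicate 2. That array was highest for 10 of the 14, with a median excess of 0.72. Il1b, which encodes interleukin 1β, read 10.06 there and 6.10 to 6.55 elsewhere, and Tlr2 read 10.68 against 8.02 to 8.96. Tnf itself read 7.57 against 6.63 to 6.99. Tlr3, the endosomal receptor for double-stranded RNA such as pIpC, differed by 0.12 (SE 0.45; 0.23 without that array). The smallest unadjusted p of the list was that of Il1r1 (0.27), which differed by -0.30 (SE 0.24; -0.27 without it).

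Of the 19 other target genes above the filter, 13 were positive, with a median of 0.17, and 8 with a median of -0.05 without knockout replicate 2. Cxcl2 and Zc3h12a passed the filter only through that array, since the mean of the other 4 lay below it. Of the remaining 17, 5 exceeded the next highest array by at least 1 log2 unit there (29.4%, against 3.28% of the 12696 genes that pass on the other 4 arrays, and 3.6% of all genes). The chemokine gene Cxcl2 read 11.75 there and 4.19 to 4.91 elsewhere, near background. Ier3, Gadd45b and the anti-apoptotic gene Bcl2l1 had excesses of 1.88, 1.61 and 1.91. Not every target followed: Icam1 and Sod2 were lower in that array, by 0.84 and 0.74, and Xiap differed by -0.06. Cxcl10, a chemokine gene that interferon also induces, peaked in another array, at 10.43 in knockout replicate 1 and 6.77 to 6.97 elsewhere. Vcam1 was the gene of the list with the smallest p, with 13.13 and 12.05 in controls and 10.30, 10.42 and 11.93 in knockouts, a difference of -1.71 (SE 0.64, unadjusted p = 0.0485, limma adjusted p = 1), and of -1.47 without knockout replicate 2.

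**Figure D3:**
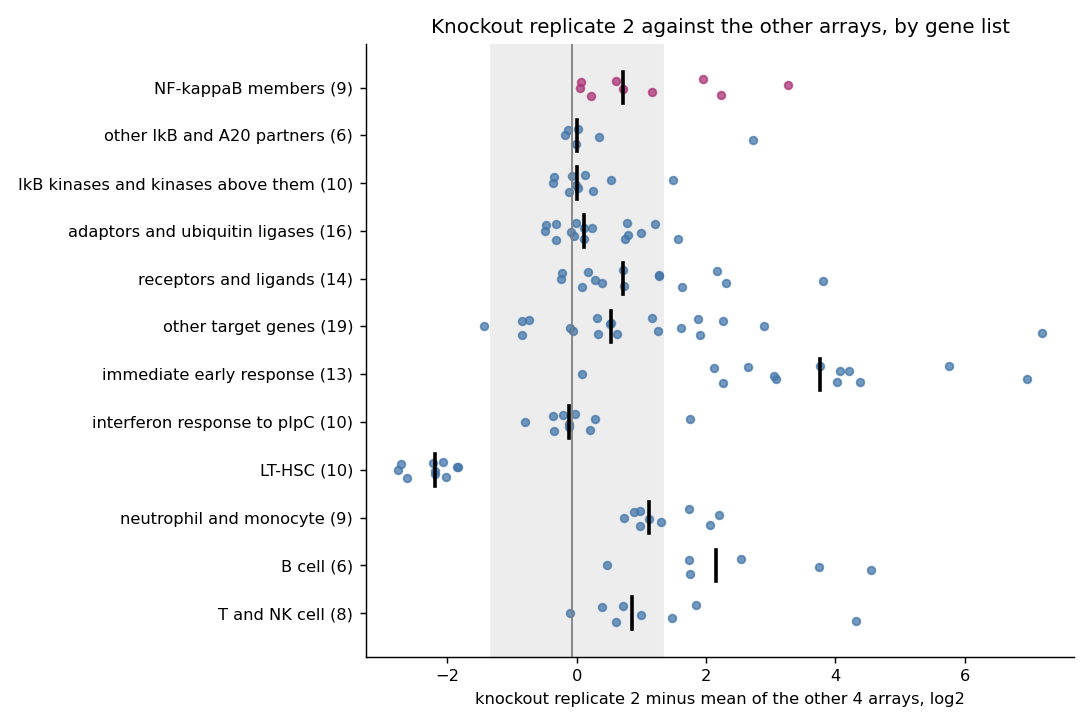
Knockout replicate 2 minus the mean of the other 4 arrays, in log2 units, with 1 point for each gene above the filter (number in brackets), black bars at list medians, a grey line at the median of 12813 genes and a grey band from their 5th to 95th percentile. The NF-kappaB members (purple) have a median of 0.72, immediate early genes one of 3.76 and LT-HSC markers one of -2.19.

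Other lists were also high in knockout replicate 2. Immediate early genes, which cells switch on within minutes of a stimulus, had a median excess of 3.76 there, and all 13 above the filter were highest in it; Fos read 14.04 against 6.96 to 7.23. The mean of all 16 was 10.65, against 7.11 and 7.38 in controls and 6.88 and 7.09 in the other knockouts. B cell markers had a mean of 9.08 in that array against 6.33 to 7.03 elsewhere, with all 6 measured genes highest there, 2 of which (Ebf1 and Blk) passed the filter only through it. Neutrophil and monocyte markers had a mean of 13.26 against 11.09 to 12.64. The excess over the next highest array was 0.67 to 1.57 for Elane, Mpo, Ccr2 and Ly86. It was 0.03 to 0.26 for S100a8, S100a9, Camp and Ltf, with control replicate 1 next. Ngp read 15.04 in control replicate 1 and 15.01 in knockout replicate 2. Mast cell and basophil markers had a mean of 9.05 in knockout replicate 2 against 6.56 to 6.83. The mean of the 9 NF-kappaB members was 9.82 there, 8.55 and 8.79 in controls and 8.84 and 8.52 in knockout replicates 1 and 3. In bulk RNA a change in the mixture of cells and a change in RNA per cell cannot be told apart, and the part of these cell types or of RNA length in the values of the members was not tested.

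The interferon response to pIpC was highest in a different array. Its 10 genes had a mean of 10.61 in knockout replicate 1, 8.73 in replicate 2, 8.28 in replicate 3 and 7.89 and 8.04 in controls. In knockout replicate 1 the median of the 9 members relative to the control mean was 0.08, in replicate 2 it was 0.66 and in replicate 3 it was -0.27. The array with the highest interferon genes was thus not the one with the highest NF-kappaB members. On its probe set of highest mean, Nfkbiz ranked the arrays other than knockout replicate 2 as the interferon genes did. Its other probe sets did not, and a link of Nfkbiz to interferon was not tested. Macrophage markers had means of 10.20 and 9.35 in controls and 8.02, 8.34 and 9.12 in knockouts, and Vcam1 is also made by marrow macrophages; whether its values came from such cells was not tested.

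**Figure D4:**
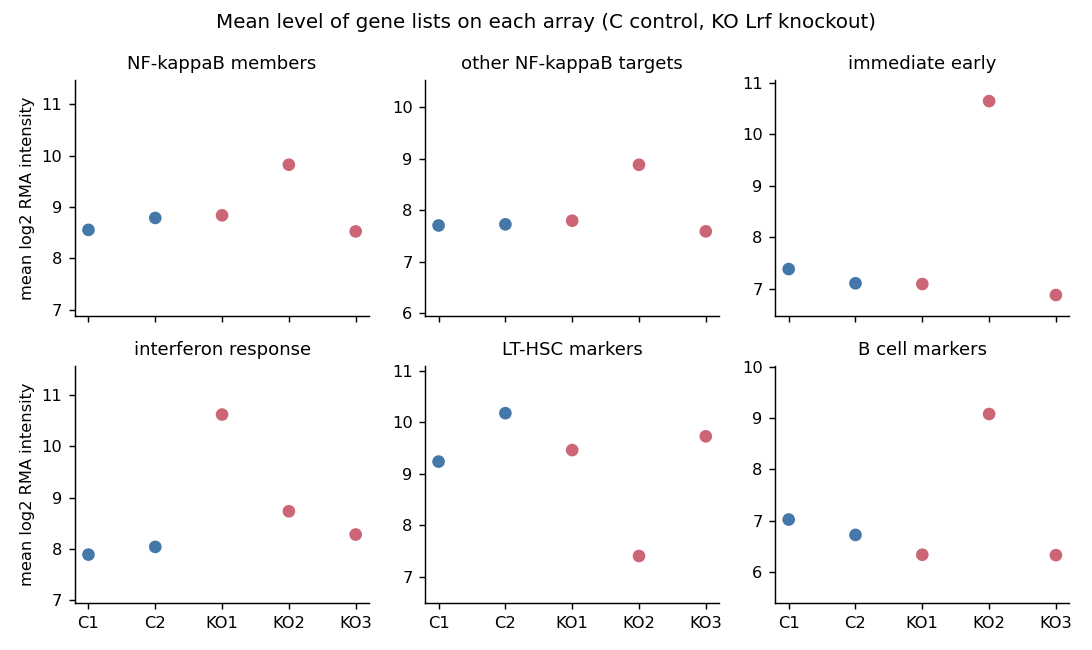
Mean log2 RMA intensity of 6 gene lists on each array (C control in blue, KO knockout in red; every panel spans the same number of log2 units). NF-kappaB members, their other targets, immediate early genes and B cell markers are highest in knockout replicate 2 (9.82, 8.88, 10.65 and 9.08), where LT-HSC markers are lowest (7.40), while interferon genes are highest in knockout replicate 1 (10.61).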

How the data were processed

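The authors made the log2 intensity values, 1 for each probe set on each array, by RMA with Affymetrix Expression Console; the submitters' processing notes name both without versions. Per the labels' protocols the biotin-labelled cRNA came from repeated in vitro transcription, which favours 3' ends. Of 45101 rows, 64 Affymetrix control probe sets were left out, and the dimmest 40% by mean were not tested. The platform annotation gave 34945 probe sets 1 symbol, 932 several and 9160 none, and a gene stands by its probe set of highest mean. The groups were compared with limma 3.58.1 (R 4.3.3; lmFit and eBayes, two-sided, Benjamini-Hochberg adjustment over 27022 probe sets), and the procedure was tested on simulated data. The number of arrays limits the precision. Genes named were all members, up to 4 genes per pathway list with the smallest p, genes with a difference of at least 1 log2 unit and no overlap of the groups, and nearest profiles. Other genes were named after their values were seen. The members and lists were chosen with earlier results of these data known. Listed genes without a single-gene probe set were not analysed here.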

Additional observations from a re-analysis of the deposited data

How the results depend on the processing

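Limma called 0 probe sets, and 0 of the member probe sets, under each alternative run. These were a trended robust eBayes prior, median centring, cyclic loess, array weights, no filter, leaving out the dimmest 60%, a replicate block, and each array omitted in turn. The lowest adjusted p of a member was 0.856, with array weights. The median member difference of 0.22 ranged from -0.084 (without knockout replicate 2) to 0.37 (without knockout replicate 3) as single arrays were left out. It was 0.32 when a gene's probe sets were averaged and 0.066 with array weights. Knockout replicate 1 had a weight of 7.67, against 0.20 and 1.03 for knockout replicates 2 and 3. The weighted knockout mean thus rests mostly on replicate 1. The replicate block gave 0 calls and a median of 0.37. Knockout replicate 3 has no control of the same number, so the block gives the differences found without that array. Same-numbered arrays deviated from their group means in opposite ways (correlations of -0.538 and -0.57). With 2 controls the control deviations are mirror images, so these correlations cannot show whether the numbers mark a pairing. Of 115 values of single members under alternatives, 111 kept their direction. This count says little, since the eBayes prior and the filters cannot change a difference, and the replicate block repeats the values without knockout replicate 3. The reversals were those of Rel, Relb and Nfkbia without knockout replicate 2, and of Rel with array weights. Rel was -0.0315 with array weights and ranged from -0.32 to 0.90 without single arrays, Relb from -0.084 to 0.34 and Nfkbia from -0.12 to 0.37, each lowest without knockout replicate 2. In a comparison added after the data were seen, leaving out that array turned the median of the IκB and A20 partners to -0.087, of the adaptors to -0.068, of receptors and ligands to -0.18, of other targets to -0.046, of B cell markers to -0.32 and of immediate early genes to -0.28. Transcripts near the filter, such as Rel, have compressed differences.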
